A study of Homo sapiens and Mus musculus with 12 samples.

Results

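RGS proteins are regulators of G-protein signalling. The 10 genes described here are Rgs1, Rgs2, Rgs3, Rgs14 and Rgs16 in mouse NK cells and their human counterparts RGS1, RGS2, RGS3, RGS14 and RGS16 in NK92MI cells, taken by symbol from 40325 rows in all (5 of 22021 rows of the mouse count table and 5 of 18304 rows of the human one). They were chosen by name with their values in these same 2 comparisons already known, and 16 other RGS genes of the mouse table and 11 of the human table were not taken. Their levels and fold changes are therefore given as a description, with no test.

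The study asked what the histone methyltransferase EHMT2 does in natural killer (NK) cells, by RNA-seq of polyadenylated RNA in 4 groups of 3 libraries. The mouse libraries came from NK cells sorted from the spleen. KO mice carried floxed Ehmt2 alleles and Ncr1-iCre, which deletes in cells that express Ncr1, and WT mice carried the floxed alleles without the Cre. Both were on a C57BL/6J background and between 8 and 12 weeks old. The human libraries came from NK92MI, a single established line of human NK cells, treated with the EHMT2 inhibitor BIX-01294 (BIX) or with the solvent DMSO. The study's NK92MI assays used 0.25 µM for 5 days, and the dose and time of these 6 libraries were not given separately. Neither the labels nor the methods state whether the 3 libraries of a group came from separate mice or cultures, so all p-values measure the spread between these libraries only. The genotype label of the KO samples reads Ezh2-KO whereas their titles read EHMT2-KO, and nothing ties each of the 3 control columns to one of the numbered DMSO samples, so their order below is that of the columns only.

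Receptors that couple to heterotrimeric G proteins, such as those for chemokines, sphingosine 1-phosphate, prostaglandins and adenosine, switch on the Gα subunit by loading it with GTP. RGS proteins bind the active Gα subunit and speed up its hydrolysis of GTP, which shortens the signal, and in lymphocytes they are known for damping the response to chemokines. RGS1, RGS2 and RGS16 are small proteins made up of little more than the RGS domain, RGS3 has several isoforms that include much longer ones, and RGS14 carries Ras-binding and GoLoco domains beside its RGS domain.

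The promoters of the 4 human genes whose BIX and DMSO libraries did not overlap are shown here because the genes differ in direction while 3 of them lie on chromosome 1. Each sequence is the 250 bases before the transcription start in RefSeq (GRCh38.p14), written 5′ to 3′ on the strand of the gene. Capitals mark matches to 6 motifs that were searched on both strands. The cAMP response element was searched as TGACGTCA. Its core was searched separately as TGACG, so that every full element also holds this shorter motif. The AP-1 element was searched as TGANTCA. The TATA box was searched as TATAAA. The other motifs were the CCAAT box and, for the GC box, the letters GGGCGG. RGS1 lay at chr1:192575523-192575772 on the plus strand, RGS2 at chr1:192808789-192809038 on the plus strand, RGS16 at chr1:182604390-182604639 on the minus strand and RGS14 at chr5:177357674-177357923 on the plus strand.
RGS1: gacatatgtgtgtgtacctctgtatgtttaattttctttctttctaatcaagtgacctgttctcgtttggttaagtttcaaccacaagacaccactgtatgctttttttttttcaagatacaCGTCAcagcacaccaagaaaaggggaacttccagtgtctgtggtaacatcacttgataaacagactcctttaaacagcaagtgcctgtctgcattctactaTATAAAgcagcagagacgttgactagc
RGS2: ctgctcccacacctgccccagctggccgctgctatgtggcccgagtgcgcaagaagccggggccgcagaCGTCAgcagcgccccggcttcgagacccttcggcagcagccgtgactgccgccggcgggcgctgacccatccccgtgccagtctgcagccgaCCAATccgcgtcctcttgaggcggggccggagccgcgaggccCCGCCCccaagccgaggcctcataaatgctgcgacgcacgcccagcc
RGS16: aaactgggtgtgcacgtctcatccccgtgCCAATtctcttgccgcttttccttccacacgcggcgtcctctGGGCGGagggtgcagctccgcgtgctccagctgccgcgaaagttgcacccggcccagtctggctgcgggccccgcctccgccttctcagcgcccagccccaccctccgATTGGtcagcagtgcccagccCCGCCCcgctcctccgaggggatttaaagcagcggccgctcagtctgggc
RGS14: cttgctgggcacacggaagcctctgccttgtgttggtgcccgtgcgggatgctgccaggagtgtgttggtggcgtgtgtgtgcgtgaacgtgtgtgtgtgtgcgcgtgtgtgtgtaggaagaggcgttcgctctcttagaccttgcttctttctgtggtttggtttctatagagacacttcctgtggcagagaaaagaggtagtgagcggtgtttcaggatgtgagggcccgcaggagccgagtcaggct

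RGS1 held a TATA box 27 to 22 bases before its start and the short cAMP response motif on the opposite strand, and its GC content was 39.2%. RGS2 held 1 match each to the short cAMP response motif, to the CCAAT box and to the GC box, and RGS16 held the CCAAT box and the GC box at 2 places each, with GC contents of 72.8% and 68.4%. None of the 6 motifs was found in the window of RGS14, whose GC content of 56.8% was close to the mean of 57.2% over all 35116 promoters of the table. Of all promoters of this length, 21.2% held the short cAMP response motif, 10.7% the TATA box, 32.0% the CCAAT box and 42.6% the GC box, while the full cAMP response element (in 1.65% of all) and the AP-1 element (in 6.57%) were found in none of the 4. A match of letters is a description of the sequence and not a binding site. RGS3, whose BIX and DMSO libraries overlapped, has 5 windows in the table, which are not shown. The CCAAT box, the GC box, the short cAMP response motif and the TATA box each matched in at least 1 of them. Matches to these motifs were therefore not particular to the genes that were higher under BIX.

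The libraries held between 25891680 and 37438868 counts in mouse and between 16579469 and 17165446 in human, and the biological coefficient of variation was 18.2% in mouse and 7.55% in human. A gene was called when edgeR's quasi-likelihood test gave a Benjamini-Hochberg adjusted p under 0.05 over all genes tested and an absolute log2 fold change over 0.5, and every adjusted p below is from that test. Ehmt2 itself fell by 0.91 on the log2 scale in KO (SE 0.10, adjusted p = 0.0162), from 281 ± 5.94 to 150 ± 18.1 CPM (counts scaled to a common library size by TMM, mean ± SD, n = 3), and Ezh2, the gene of the other genotype label, was at a log2 fold change of -0.23 (adjusted p = 0.116). BIX is an inhibitor of the enzyme, and EHMT2 RNA was also lower, at 57.6 ± 3.65 CPM under DMSO and 38.5 ± 2.38 under BIX (-0.58, SE 0.08, adjusted p = 0.000101). All 12 NK cell markers were detected in every group, with summed levels of 5537 to 9349 CPM in WT and 10473 to 12297 in KO. The mouse libraries also held RNA of other cells, for most lists more so in WT. The 10 B cell markers summed to 571 to 1638 CPM in WT and 98.4 to 535 in KO. The 12 macrophage and monocyte markers summed to 2633 to 6896 and 1402 to 2553, and the 10 neutrophil markers to 166 to 1383 and 29.5 to 186. The 10 erythroid and platelet markers summed to 1759 to 2647 and 1249 to 1390. The sums of the 9 T cell markers found overlapped, at 188 to 288 in WT and 143 to 258 in KO. No marker was at 0 in all libraries of a group. Among the mouse libraries, 86.7% to 89.7% of the counts from 1 to 9 were even numbers, against 40.2% to 42.9% in the human libraries, and what made them even is not given in the sources used here.

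In KO against WT, the 5 mouse genes moved little. Rgs3 and Rgs14 were higher in all KO libraries than in any WT library, by 1.34-fold and 1.32-fold, Rgs2 leaned lower, and none of the 5 was called. Over all 13189 genes tested, 9.51% were called (2.82% higher and 6.69% lower) and 38.5% had groups that did not overlap, against 2 of the 5 members. Nothing is read from these counts, since the members were chosen on the same comparison.

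Rgs3, which acts on Gαi and Gαq, was at 213, 254 and 215 CPM in WT replicates 1, 2 and 3 and at 277, 330 and 307 CPM in KO replicates 1, 2 and 3. The lowest KO library lay above the highest WT library, and the log2 fold change was 0.42 (SE 0.11), or 1.34-fold. Rgs14, the member with Ras-binding and GoLoco domains, was at 78.2, 91.7 and 93.3 CPM in WT and at 115, 119 and 114 CPM in KO. Its groups did not overlap either, the KO libraries were close to each other, and the log2 fold change was 0.40 (SE 0.09).

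Rgs2, which acts mainly on Gαq, was at 310, 272 and 307 CPM in WT and at 278, 198 and 180 CPM in KO. KO replicate 1 lay inside the WT range while the other KO libraries lay below it, so that the log2 fold change of -0.44 (SE 0.16) came from 2 of 3 libraries. Rgs1, known for limiting chemokine-driven migration, was at 31.2, 26.99 and 26.6 CPM in WT and at 37.6, 33.1 and 30.9 CPM in KO, with overlapping groups and a log2 fold change of 0.26 (SE 0.11). Rgs16, another regulator of Gαi and Gαq that is induced in activated lymphocytes, was the member of lowest level, at 1.73, 2.79 and 1.77 CPM in WT and 2.23, 3.93 and 1.97 CPM in KO. It rested on 64 to 146 counts per library, its groups overlapped, and its log2 fold change of 0.38 had an SE of 0.35 and was 0.01 without KO replicate 2.

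The members were also set against NK cell markers. With the libraries scaled to the summed counts of the 12 NK cell markers, which were higher in KO, the median of all genes moved from 0.01 to -0.81. This shift is common to all genes, and with it Rgs1 (-0.57), Rgs3 (-0.38), Rgs14 (-0.41) and Rgs16 (-0.40) turned negative. Relative to that median gene Rgs1 stood at 0.24, Rgs3 at 0.43, Rgs14 at 0.40, Rgs16 at 0.42 and Rgs2 at -0.45. Taking off the median removes the common shift, so these values lie near the TMM ones by construction and are no separate check. The same holds wherever values relative to the median gene are given below. In bulk libraries fewer cells of a type and less RNA per cell cannot be told apart. Macrophage, neutrophil, B cell and erythroid markers moved with the genotype in the direction in which Rgs2 leaned. T cell markers went both ways, 3 higher and 6 lower in KO. The part of other cells in the result was not tested.

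In BIX against DMSO, RGS1, RGS16 and RGS2 were higher, RGS14 was lower and RGS3 was level. RGS1 had the highest fold, at 3.26 times its DMSO level, and RGS16 stood at 2.24 times, while RGS14 was 2.09-fold lower. Of the 5 members 3 were called higher and 1 lower, and 4 had groups that did not overlap. Over all 12727 genes tested, 14.9% were called (7.57% higher and 7.34% lower) and 47.9% had groups that did not overlap. As in mouse, nothing is read from the members' counts beside these shares.

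RGS1 was at 40.9, 40.4 and 44.8 CPM in the DMSO libraries and at 140, 126 and 144 CPM in BIX replicates 1, 2 and 3. The lowest BIX library was far above the highest DMSO library, with a log2 fold change of 1.70 (SE 0.08), or 3.26-fold. RGS16 was at 38.7, 47.1 and 46.0 CPM in DMSO and at 101, 87.4 and 107 CPM in BIX. The groups were again far apart, with a log2 fold change of 1.16 (SE 0.09), or 2.24-fold.

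RGS2 was a low gene in this line, at 1.92, 2.57 and 1.60 CPM in DMSO and at 3.16, 4.11 and 4.36 CPM in BIX. Every BIX library lay above every DMSO library on 27 to 74 counts per library, and the log2 fold change was 0.93 (SE 0.24). RGS14 went the other way, at 48.1, 54.7 and 49.8 CPM in DMSO and at 24.8, 21.4 and 26.9 CPM in BIX. Its groups did not overlap and its log2 fold change was -1.06 (SE 0.10). RGS3 was at 72.6, 86.6 and 74.6 CPM in DMSO and at 69.8, 79.2 and 73.7 CPM in BIX, so that the groups overlapped, with a log2 fold change of -0.07 (SE 0.08).

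**Figure D1:**
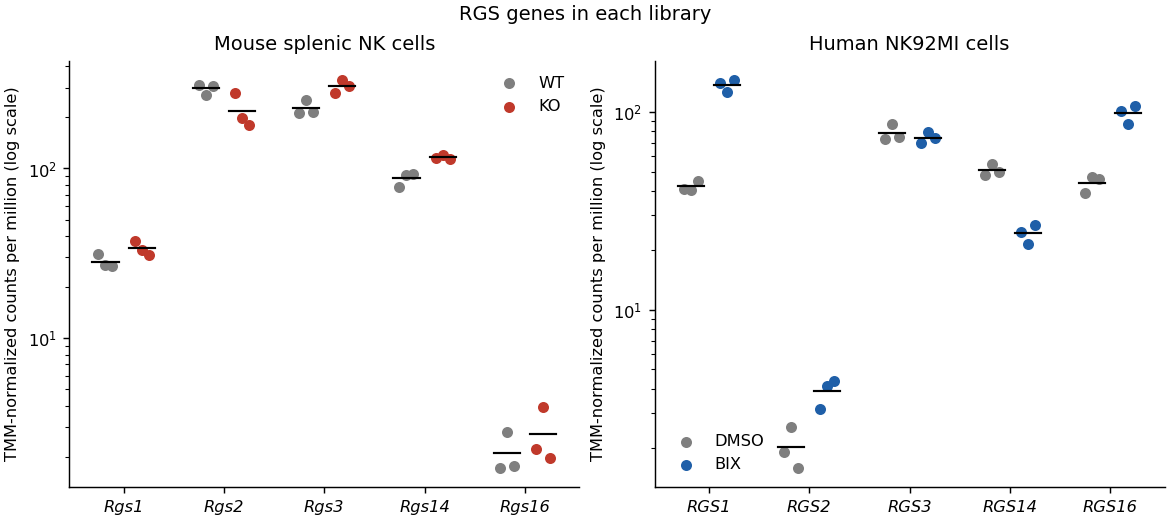
CPM on a log axis for the 5 genes in each mouse library (left, WT grey, KO red) and each NK92MI library (right, DMSO grey, BIX blue), with a line at each group mean. RGS1 and RGS16 stand well apart in BIX, RGS14 is lower there, and in mouse only Rgs3 and Rgs14 have KO libraries all above the WT ones (log2 fold changes of -0.38 and -0.41 when libraries are scaled to NK cell markers, and of 0.43 and 0.40 relative to the median gene under that scaling).

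The signs of the log2 fold changes were not the same in both comparisons for every gene. RGS14 was lower in all BIX libraries (-1.06) and Rgs14 higher in all KO libraries (0.40), and Rgs2 leaned lower in KO (-0.44) where RGS2 was higher in BIX (0.93). Rgs1 and Rgs16 had positive log2 fold changes in KO of 0.26 and 0.38, beside 1.70 and 1.16 for RGS1 and RGS16 in BIX. The comparisons differ in species, in cell type (sorted spleen cells and a cell line), in the means of acting on EHMT2 and in duration, which cannot be told apart here, and the difference between them was not tested.

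The RGS genes outside the 5 are given beside them. They are what was left when the members were chosen with their values known. Contrasts between members and others, here and in the shares below, may come in part from that choice, and nothing is read from them. In mouse, 6 of the 16 others passed the filter on low counts, and all 6 were lower in KO, with a median log2 fold change of -0.47 beside 0.01 over all genes. Rgs10 and Rgs18 were called lower, at -0.66 (SE 0.15, adjusted p = 0.0419) and -0.61 (SE 0.12, adjusted p = 0.0349). Rgs10, a small regulator abundant in immune and platelet lineages, went from 111 ± 17.1 CPM in WT to 70.63 ± 11.996 in KO, and Rgs18, known from platelets and other blood cells, from 75.7 ± 10.8 to 49.7 ± 4.66 (SD, n = 3). Rgs19 (-0.26, adjusted p = 0.125), Rgs12 (-0.45, 0.0924), Rgs11 (-0.49, 0.15) and Rgs9 (-0.33, 0.567) did not pass the test. Neither of the calls was kept without WT replicate 1, WT replicate 3, KO replicate 2 or KO replicate 3, where the count of other RGS genes called was 0. Most markers of other cells were lower in KO as well. These were all 10 erythroid and platelet markers (6 called, median -1.68) and all 12 macrophage and monocyte markers (7 called, median -1.82). In the first list the platelet markers Pf4 (-0.55), Ppbp (-0.69), Itga2b (-0.48) and Gp9 (-0.62) moved less than the erythroid ones (-1.08 to -2.68). All 9 neutrophil markers tested (3 called, median -3.72) and all 10 B cell markers (0 called, median -2.31) were also lower. Of 9 T cell markers tested, 6 were lower and 3 higher (median -0.70), with 2 called higher and 0 lower. Over all genes 6.69% were called lower and 2.82% higher. The part of other cells in the result was not tested.

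In NK92MI cells 11 of the others were in the table and 7 passed the filter, with a median log2 fold change of 0.08 beside -0.01 over all genes. RGS5, a small regulator best known from pericytes, was called higher at 0.80 (SE 0.26, adjusted p = 0.0259), from 1.80 ± 0.444 to 3.14 ± 0.503 CPM. It was not called without the second control column or without BIX replicate 1. RGS18 (-0.40, adjusted p = 0.00914) and RGS9 (-0.19, adjusted p = 0.0486) passed the p threshold but not the fold change threshold, and RGS6 (0.09), RGS13 (0.41), RGS17 (0.08) and RGS19 (-0.15) had adjusted p between 0.203 and 0.873.

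**Figure D2:**
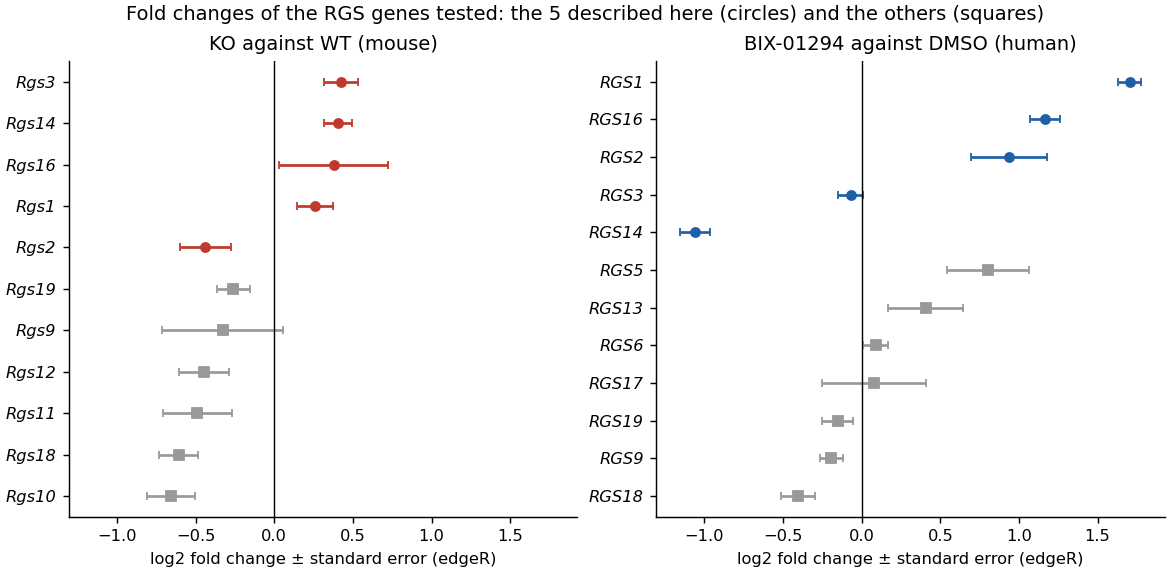
Log2 fold changes with standard errors from the edgeR fit for every RGS gene tested, KO against WT on the left and BIX against DMSO on the right, with the 5 genes described as circles and the others as squares. Among the others all 6 mouse genes lie below 0 (Rgs10 lowest at -0.66), whereas the human members spread from 1.70 for RGS1 to -1.06 for RGS14. Scaling to NK cell markers shifts the median mouse gene to -0.81 and all mouse genes plotted below 0. Values relative to that median gene lie near the plotted ones by construction.

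Levels of different genes were compared as CPM per kilobase of merged exons. In WT cells Rgs2 had the highest level of all 21 RGS genes (75.1 to 85.4 CPM per kb over the libraries), above Rgs19 (62.3 to 71.2), which overlapped with Rgs10 (54.6 to 74.6). Rgs18 followed (33.2 to 43.3), then Rgs3 (19.7 to 23.5) and Rgs14 (18.44 to 22.01), which did not differ beyond their spread. Rgs1 (3.83 to 4.49) and Rgs16 (0.738 to 1.19) were far down the order. In KO cells the level of Rgs2 (49.7 to 76.7) overlapped with that of Rgs19 (49.8 to 63.3), and Rgs3 (25.7 to 30.6) and Rgs14 (26.8 to 28.2) reached the level of Rgs18 (22.9 to 27.1). The summed level of all RGS genes was 286 to 329 CPM per kb in WT and 227 to 282 in KO. The 5 members made up 39.9% to 43.9% of that sum in WT and 48.14% to 50.03% in KO.

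In NK92MI cells under DMSO the level of RGS16 was highest of the 16 RGS genes with human counts (16.1 to 19.5 CPM per kb). RGS7, RGS10, RGS12, RGS21 and RGS22 had none, so human ranks and shares do not cover the same genes as the mouse ones. RGS19 (12.9 to 14.9) and RGS14 (12.99 to 14.8) followed RGS16 and did not differ beyond their spread. RGS1 came next (9.92 to 10.997). RGS3 (5.52 to 6.59) overlapped with RGS18 (6.15 to 7.31), and RGS2 (0.764 to 1.23) was the lowest of the members. Under BIX the level of RGS16 (36.3 to 44.5) and that of RGS1 (31.0 to 35.4) both lay above RGS19 (11.2 to 13.6), while RGS14 (5.78 to 7.26) came down to the level of RGS9 (6.85 to 7.23) and RGS3 (5.31 to 6.02). The summed level of the 16 RGS genes was 81.0 to 86.3 CPM per kb under DMSO and 111 to 126 under BIX, with the members' share at 56.2% to 60.3% and 73.0% to 75.0%. The mean share of RGS1 went from 12.4% to 28.1%, that of RGS16 from 21.8% to 34.2% and that of RGS14 from 16.4% to 5.50%.

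The order within a library rests on the length used for each gene. Per kilobase of the longest annotated transcript, Rgs10 led in WT (127 CPM per kb), Rgs19 (99.2) and Rgs2 (98.1) followed without differing beyond their spread, RGS14 (20.7 to 23.5) and RGS9 (19.9 to 21.5) led under DMSO and did not differ beyond their spread, and RGS1 led under BIX (51.6) ahead of RGS16 (40.9). The members' share of the sum changed little, at 38.5% to 43.4% in WT, 47.7% to 51.4% in KO, 55.0% to 59.1% under DMSO and 70.1% to 72.1% under BIX.

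**Figure D3:**
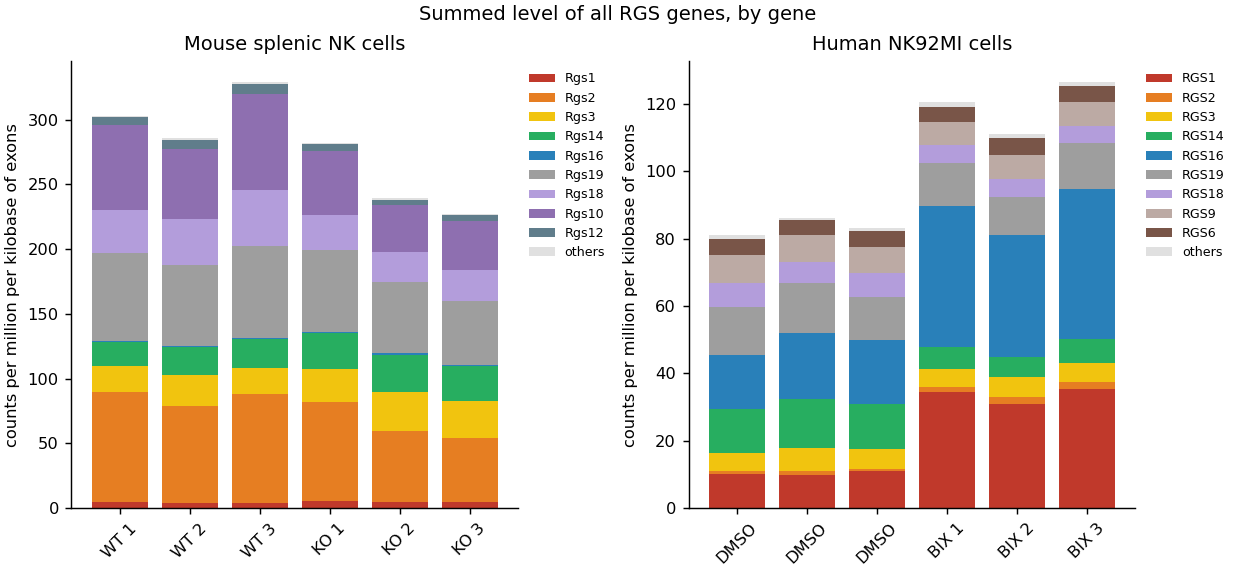
Summed level of the RGS genes with counts (21 in mouse, 16 in human) in each library, in CPM per kilobase of merged exons. Bars are stacked by gene, for mouse (left) and NK92MI cells (right). The sum is lower in the 3 KO libraries (227 to 282) than in the WT ones (286 to 329), and higher under BIX (111 to 126) than under DMSO (81.0 to 86.3). Under BIX the parts of RGS1 and RGS16 are taller (means of 33.6 and 40.9, against 10.3 and 18.2 under DMSO). That of RGS14 is shorter (6.58 against 13.7).

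The receptors and effectors that RGS proteins act between were taken as lists. The receptor list changed in both directions in NK92MI cells: of 30 G protein-coupled receptors tested, 5 were called higher and 6 lower, beside 7.57% and 7.34% of all genes. The median log2 fold change of the list was 0.14. CCR7, the lymph node homing receptor, rose by 2.27 (SE 0.08, adjusted p = 1.95e-09) from 41.0 ± 4.25 to 198 ± 11.9 CPM. CXCR4, the receptor for CXCL12, rose from 294 ± 10.4 to 876 ± 56.1 CPM (1.58, SE 0.07, adjusted p = 3.37e-09). PTGER4, a receptor for prostaglandin E2, rose by 0.95 (SE 0.06), and SUCNR1, the succinate receptor, rose by 4.31 (SE 0.22) from a low level of 0.566 ± 0.119 to 11.4 ± 0.989 CPM. CXCR3, the receptor for interferon-induced chemokines, fell by 0.84 (SE 0.09, adjusted p = 1.48e-05), the prostaglandin D2 receptor PTGDR fell by 0.71 (SE 0.08), and the adhesion receptors ADGRG1 and ADGRG3 fell by 0.80 (SE 0.12) and 1.33 (SE 0.26).

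In the mouse list 43 receptors were tested, of which 7 were called higher and 3 lower, beside 2.82% and 6.69% of all genes, with a median of 0.15. S1pr5, the sphingosine 1-phosphate receptor of NK cell egress, rose from 290 ± 76.0 to 570 ± 48.5 CPM (0.97, SE 0.18, adjusted p = 0.0319), and the adenosine receptor Adora2a from 70.6 ± 11.1 to 134 ± 8.28 (0.93, SE 0.12, adjusted p = 0.0215). The chemerin receptor Cmklr1 rose by 0.59 (SE 0.12). With libraries scaled to NK cell markers 4 of the 7 called higher turned negative with the common shift, Cmklr1 at -0.22 among them. Relative to the median gene, which takes that shift back out, Cmklr1 stood at 0.60, S1pr5 at 1.02 and Adora2a at 0.95. Adgrg1 fell by 0.68 (SE 0.11, adjusted p = 0.0269), P2ry14 by 0.61 (SE 0.16) and the myeloid chemokine receptor Ccr1 by 1.84 (SE 0.43), the last of these by 1.19 without WT replicate 3.

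G protein subunits, the direct substrates and partners, showed 0 calls among 16 tested in NK92MI cells by edgeR (beside 14.9% of all genes) or by DESeq2 (median 0.00), with 4 of them at an unadjusted p under 0.05. In mouse 16 of 22 subunits were lower (median -0.32) and 3 were called lower, beside 6.69% of all genes. DESeq2 called 5 of the 22, and 9 had an unadjusted p under 0.05 in edgeR. Those called by edgeR were Gng12 (-0.83, SE 0.14), Gng7 (-1.62, SE 0.38) and Gna12 (-0.71, SE 0.19). Gna12 kept its call under 8 of 15 alternatives, Gng12 under 11 of 15 and Gng7 under 9 of 14. Of the receptor kinases, arrestins and other regulators, 1 of 19 was called in mouse, beside 9.51% of all genes. It was Gpsm1, a GoLoco protein like Rgs14, at 0.57 (SE 0.14, adjusted p = 0.0467). Gpsm1 stood at -0.22 with NK marker scaling and at 0.59 relative to the median gene there. In NK92MI cells 14 of that list were tested, of which the arrestin-like ARRDC3 rose by 0.75 (SE 0.06) and the β-arrestin ARRB2 fell by 0.72 (SE 0.09).

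Among effectors of cAMP and phospholipase C, 3 of 24 were called higher and 2 lower in NK92MI cells (5 of 24, beside 14.9% of all genes) and 4 of 30 were called in mouse (beside 9.51%), shares near those over all genes, so the values that follow describe single genes and not the list. The phosphodiesterase PDE3B rose by 0.995 (SE 0.07, adjusted p = 4.36e-07), the cAMP-responsive factor CREM by 0.65 (SE 0.09), and the guanine nucleotide exchange factor ARHGEF11 by 1.76 (SE 0.43), a low gene whose log2 fold change was 2.60 without the third control column. PDE7A fell by 0.53 (SE 0.07) and the phospholipase PLCB2 by 0.55 (SE 0.08). In mouse 1 of 30 was called higher, the phospholipase Plcb4 (0.72, SE 0.12, at -0.09 with NK marker scaling and 0.72 relative to the median gene there), and 3 lower, the adenylyl cyclase Adcy6 (-0.63, SE 0.15), the protein kinase A subunit Prkar2b (-0.55, SE 0.14) and the cAMP-activated exchange factor Rapgef4 (-2.14, SE 0.55, and -3.00 without KO replicate 1). Over the 4 lists together 18 genes were called in mouse, and without KO replicate 2, KO replicate 3 or WT replicate 3 the count was 0.

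RGS1, RGS2 and RGS16 are known as genes that activation induces, so immediate early genes were set beside them. The list was chosen with earlier results of these data known. In NK92MI cells 13 of 22 were called higher and 2 lower, beside 7.57% and 7.34% of all genes, with a median of 0.65. The summed level of the list was 1625 to 1693 CPM under DMSO and 2823 to 3214 under BIX. JUN rose from 72.8 ± 4.73 to 246 ± 17.3 CPM (1.76, SE 0.07, adjusted p = 3.37e-09), IER5 by 1.21 (SE 0.09), DUSP5 by 0.99 (SE 0.06) and KLF6 by 0.91 (SE 0.06). FOS fell by 0.72 (SE 0.22) and DUSP2 by 0.55 (SE 0.15), both at low levels. In mouse 2 of 25 were called higher (beside 2.82% of all genes), Dusp2 (0.67, SE 0.11) and Nr4a2 (0.59, SE 0.15). They stood at -0.12 and -0.23 with NK marker scaling and at 0.69 and 0.58 relative to the median gene there. Summed levels of the list were 3256 to 3787 CPM in WT and 3506 to 4247 in KO. The other 7 immediate early genes tested in NK92MI cells were not called. The summed level of the list was higher under BIX, as were RGS1, RGS2 and RGS16, and its part in the result was not tested.

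**Figure D4:**
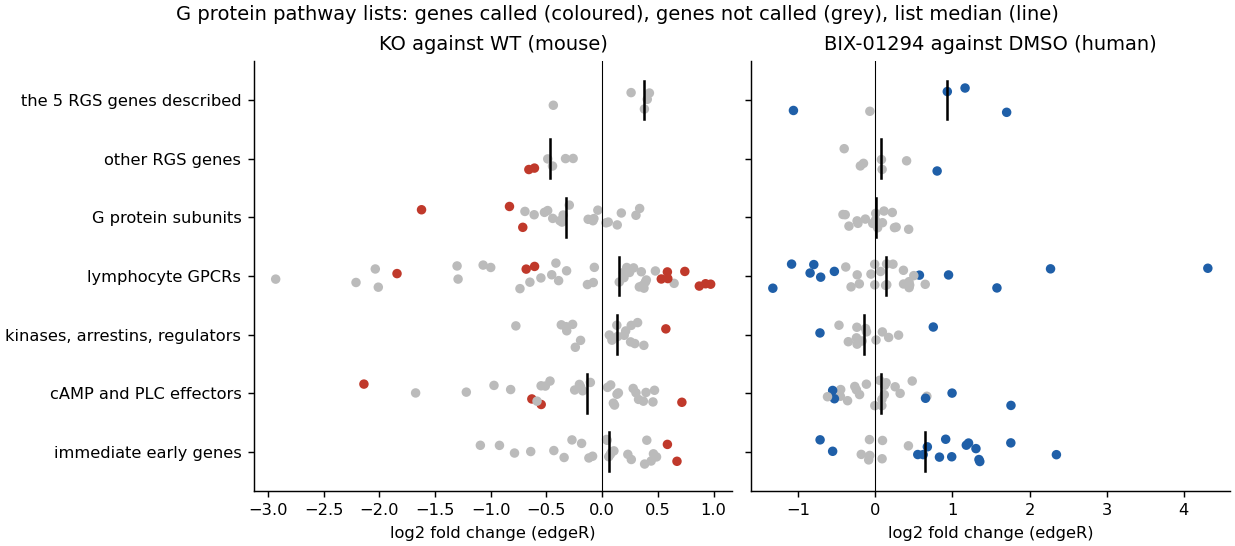
Log2 fold changes of every tested gene of the lists, KO against WT on the left and BIX against DMSO on the right; coloured points were called, grey points were not, and the line is the list's median. The immediate early genes lie to the right under BIX (median 0.65) and the receptors spread to both sides. In mouse the subunits (median -0.32) and the other RGS genes (median -0.47) lie to the left. Relative to the median gene under NK marker scaling the medians of the latter lists are -0.33 and -0.45, close to the plotted ones by construction.

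For each member the genes of most similar pattern were found by the root mean square difference of log2 CPM, centred over the 6 libraries of the species, a measure in which genes of like fold change lie close. RGS1 was closest to CD83 (0.0678), CXCR4 (0.0828) and HLA-DRB5 (0.0896), and RGS16 to TXNIP (0.0498), IER5 (0.0519) and RNASET2 (0.0621). RGS14 was closest to MATK (0.0715), ZNF692 (0.0748) and RASGEF1A (0.083), with log2 fold changes near its own, and RGS2 to FOXD4L1, PINK1 and ZNF629 (0.103 to 0.122). LETM1 (0.0324) and ATG4D (0.0348) were among the closest to RGS3. In mouse Rgs14 was closest to Kdm3a, Rassf1 and Zfp692 (0.0276 to 0.0358). Rgs3 was closest to Nod1, Lta4h and Ksr1 (0.0254 to 0.0336), Rgs1 to Gstt1, Mien1 and Ftsj2 (0.0286 to 0.0386), Rgs2 to Napsa, Pafah1b3 and Pmvk (0.0524 to 0.0587) and Rgs16 to Sptbn5, Gnrh1 and BC051628 (0.136 to 0.161).

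Some members share genomic ground with other genes. In the mouse annotation (GENCODE M21, GRCm38) Rgs1, Rgs2 and Rgs16 lie on chromosome 1, Rgs1 at chr1:144242296-144249242 and Rgs2 at chr1:143999338-144004161, and in the human one (GENCODE 44, GRCh38) RGS1 (chr1:192575763-192580024) and RGS2 (chr1:192809039-192812275) are close together as well, with RGS13 (log2 fold change 0.41) between them and RGS18 (-0.40) nearby. A long non-coding RNA on the opposite strand overlaps RGS1 and RGS2, and antisense genes overlap RGS3, Rgs3 and Rgs16. No counts of these partners were used here, and the strand setting of the counting was not given in the sources used here, so reads from such a partner could not be told apart from those of the member.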

How the data were processed

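RNA-seq libraries of splenic NK cells (3 WT, 3 KO) and NK92MI cells (3 DMSO, 3 BIX) were analysed. Per the methods and the submitters' processing notes, the authors trimmed reads with fastp 0.23.4, aligned them with STAR 2.7.11b to GRCm38 or GRCh38 and counted them with HTSeq 2.0.3; the deposited values are raw counts per gene symbol. The annotation release and strand setting were not given in the sources used here.

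Each species was fitted separately in R 4.3.3 with edgeR 4.0.16 (quasi-likelihood test, TMM, filterByExpr), with DESeq2 1.42.0 and limma 3.58.1 (voom) as alternatives, tested on simulated data. The study's stricter threshold (adjusted p under 0.01) was an alternative, since edgeR called no mouse gene there. No 2 libraries of a group agreed within sampling noise. CPM of members are TMM-normalized. Lengths came from GENCODE, promoters from RefSeq. Members and lists were chosen with earlier results of these data known. Named were all members, every other RGS gene tested, up to 4 called genes per list and direction by smallest adjusted p, the 3 genes of most similar pattern for each member, and Ehmt2, Ezh2 and EHMT2; some genes that this rule takes are not reported here. Counting error weighs most on Rgs16 and RGS2, the members with the fewest counts per library (64 to 146 and 27 to 74). Its share in the spread of libraries was not worked out for each member.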

Additional observations from a re-analysis of the deposited data

How the results depend on the processing

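The members' log2 fold changes in BIX against DMSO kept their direction under all 12 alternatives except RGS3, which ranged from -0.12 to 0.011 with 1 library left out and turned positive without the second control column. RGS1 ranged from 1.67 to 1.76, RGS16 from 1.08 to 1.25, RGS2 from 0.79 to 1.14 and RGS14 from -1.13 to -0.97. The count of members called was 4 under every alternative, beside 14.9% of all genes called in the main fit. Nothing is read from that count, since the members were chosen on the same comparison. In KO against WT the members kept their direction except under scaling to NK cell markers, which moves every gene down. It gave -0.57 for Rgs1, -1.26 for Rgs2, -0.38 for Rgs3, -0.41 for Rgs14 and -0.40 for Rgs16, with the median gene at -0.81. Values relative to that gene lie near the main ones by construction and are no separate check.

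Counts of calls in KO against WT were far less stable. Genes called numbered 1254, and 2209 by DESeq2, 8680 with NK marker scaling and 0 by edgeR at an adjusted p under 0.01, where 4719 genes had an unadjusted p under 0.05, the smallest adjusted p was 0.0116 and DESeq2 called 396 higher and 1099 lower. With 1 library left out they ranged from 0 (without KO replicate 2 or 3) to 2740 (without WT replicate 2), with 99 without WT replicate 1 and 14 without WT replicate 3. Members called numbered 0, but 2 with no fold change threshold, 1 with NK marker scaling and 0 to 1 with a library left out (1 without WT replicate 2 or KO replicate 1). These counts of members stand beside 9.51% of all genes called in the main fit, and nothing is read from them. Other RGS genes called numbered 2, but 0 at the stricter edgeR threshold, 5 with NK marker scaling and 0 to 3 with a library left out. G protein pathway genes called numbered 18, but 32 by DESeq2, 0 at the stricter edgeR threshold, 75 with NK marker scaling and 0 to 38 with a library left out. With the replicate number in the fit (replicate block) 2145 genes and 31 pathway genes were called; same-numbered libraries correlated at 0.281, 0.352 and -0.188 in their deviations, so the numbers were not taken to pair the samples. Counts halved and rounded up, an alternative chosen after seeing the data, changed none of these calls by over 1.5 times.

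In BIX against DMSO genes called numbered 1898, but 4692 with no fold change threshold, and pathway genes 18, but 42. Other RGS genes called numbered 1, but 3 with no fold change threshold, 0 with the study's threshold of 0.01 in either edgeR or DESeq2, and 0 to 1 with a library left out. No paired analysis was possible for the human libraries because the control columns carry no replicate number. Where no construction of the alternative explains a change, the cause was not tested. Depth limits the precision most for Rgs16, RGS2 and the lowest RGS genes.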
